A study of Amphimedon queenslandica with 144 samples.

Results

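Transcripts were examined that stood highest in young swimming larvae of the sponge Amphimedon queenslandica kept in filtered seawater, at an age of 3.5 h after emergence from the mother. The set held 60 gene models of the 47411 features in the count table, of which 44016 carried an identifier of the Aqu2.1 gene models. It was chosen by measured levels in 27 animals. For each feature, counts were divided by the animal's total and scaled to a common total, giving CPM, and the group median of log2(CPM + 1) was taken. Features with a median of at least 10 CPM in seawater larvae of 3.5 h were kept, which left 7681 Aqu2.1 features. For each of them the median at 3.5 h was set against that of larvae of 0.5 h and against that of seawater larvae of 10 h, and 334 features exceeded both by more than 0.5 on the log2 scale. The 60 with the highest smaller of these differences formed the set. The differences among those 27 animals are therefore given as a description. Tests were made on contrasts that leave the choosing groups out. The main fit held all 144 animals, so those 27 also entered its estimates of spread and batch.

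The series holds 144 single animals, each counted as its own CEL-Seq2 library, a method that tags and counts the 3′ ends of polyadenylated RNA. Of these, 27 were post-larvae that had settled and held fast when the plate was swirled, and 117 were swimming larvae. Settled animals came from wells that held the articulated coralline alga Amphiroa fragilissima (6 animals aged 7 h and 7 aged 10 h) or the crustose coralline alga Mesophyllum sp. (7 animals at each age). Swimming larvae had spent 2 h in single wells with A. fragilissima, with Mesophyllum sp. or with filtered seawater alone, and 9 were collected for each cue when 3.5, 5, 7 or 10 h old. A further 9 larvae aged 0.5 h received no cue. They were not held in wells, so that age and handling cannot be told apart between 0.5 h and the later ages. Larvae taken from the algae were those that had not settled, so that a response to the alga and the loss of settled animals from the pool cannot be told apart.

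The brooded larva of this demosponge leaves the mother, swims for some hours, becomes competent to settle, attaches and then metamorphoses into a juvenile. Coralline algae are settlement cues for it, and the hours between emergence and settlement are the time in which the larva gains the ability to respond. The files do not pair the gene models with names and the RefSeq gene table of this species names none of them, so members are given by identifier and no function is assigned. In whole animals, fewer cells of a type and less RNA per cell cannot be told apart.

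Totals ran from 541737 to 4692279 counts per animal with a median of 2011368.5. Libraries were made in batches T, K and C of 48 animals each. Batch C held 25 of the 27 settled animals and none of the 27 animals that chose the members. Levels below are plain CPM. Log2 fold changes, given with their standard errors, came from the quasi-likelihood F test of edgeR with a term for batch and library sizes scaled by TMM, the trimmed mean of M-values, fitted over all 14950 features that passed its low-count filter. All 60 members passed that filter, which used all 144 animals, including those that chose the set. With only the compared groups filtered, fewer members passed. In the comparison of 10 h with 3.5 h, 57 passed over both algae, 42 with A. fragilissima and 47 with Mesophyllum sp. Between the algae at 3.5 h 43 passed. A change was called at a Benjamini-Hochberg adjusted p below 0.05 over the 14950 features. Animals were separate individuals.

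Members differed widely in level and in height of the peak. Median levels in seawater larvae of 3.5 h ran from 10.4 to 2350 CPM with a median of 33.8 CPM, and 13 members were at 100 CPM or more. The most abundant were Aqu2.1.39976_001 at 2350 CPM, Aqu2.1.41008_001 at 388 CPM, Aqu2.1.20954_001 at 250 CPM, Aqu2.1.26388_001 at 235 CPM and Aqu2.1.24880_001 at 199 CPM. The smaller of the differences from 0.5 h and from 10 h ran from 1.18 to 6.68 on the log2 scale, with a median of 1.80. Just inside the limit lay Aqu2.1.23535_001 (1.19), Aqu2.1.18551_001 (1.19) and Aqu2.1.39976_001 (1.18). Just outside lay Aqu2.1.41441_001 (1.17), Aqu2.1.37461_001 (1.17) and Aqu2.1.06886_001 (1.15), so the limit falls in a continuous run of values.

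Few members separated the choosing groups animal by animal. All 9 seawater larvae of 3.5 h lay above all 9 larvae of 0.5 h for 6 members, while 1.59% of the 7681 abundant features did so. All 9 seawater larvae of 10 h lay below all 9 of 3.5 h for 5 members, against 0.716% of those features. Nothing is read from either count, since these values chose the set. Within batch T 52 members, and within batch K 55, had a median at 3.5 h above both other ages. These are the same animals that chose the set, so nothing is read from these counts either. Members that did not separate the groups have a high median at 3.5 h with animals that overlap those of another age.

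Members varied between animals in different ways. Some were present in nearly every animal and were graded with age, and others were near 0 in some animals and high in others. The graded ones are described first.

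Among larvae that took no part in the choice, 15 of the 60 members fell with age. These were swimming larvae with either alga, 18 of 10 h compared with 18 of 3.5 h, the mean of both algae being tested. Of all features tested, 9.13% were lower at 10 h in this comparison and 10.9% were higher. Some of those features lie below the 10 CPM that members had to reach, and shares matched for level were not taken. No member was called higher by edgeR, none was higher at an unadjusted p below 0.05, and DESeq2 called none higher and 16 lower. Fold changes were negative for 43 members, and their median was -0.54 against 0.03 over all features. The 15 members that fell ranked from 22 downward in the set, so none of the 20 steepest peaks in seawater was among them.

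**Figure D1:**
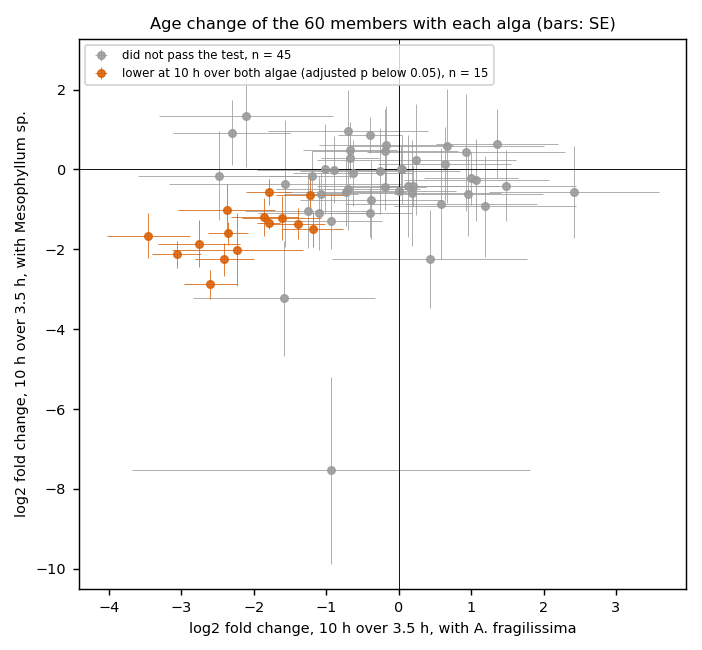
Log2 fold change between 10 h and 3.5 h of age in larvae swimming with A. fragilissima (horizontal axis) and with Mesophyllum sp. (vertical axis) for the 60 members, bars being standard errors. The 15 members that fell over both algae (orange) lie in the lower left, and the 45 others (grey) scatter on both sides of 0 with wide bars.

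Aqu2.1.39976_001 was the most abundant and the steadiest member. With A. fragilissima its levels ran from 639 to 1061 CPM (median 870) in the 9 larvae of 10 h and from 1738 to 3297 CPM (median 2454) in the 9 of 3.5 h. With Mesophyllum sp. they ran from 791 to 1130 CPM (median 963) at 10 h and from 1708 to 2695 CPM (median 2084) at 3.5 h. The ages did not overlap with either alga. The fold change was -1.56 ± 0.11 (edgeR adjusted p = 3.63e-24), and each of the 18 larvae of 10 h lay below every larva of 3.5 h with its alga. Its medians were 963 CPM at 0.5 h without a cue and then 2350, 2421, 1770 and 1039 CPM in seawater at 3.5, 5, 7 and 10 h. Its counts reached 6160 in an animal, and the highest count of any feature was 8192, a ceiling set by the number of molecular identifiers. More than 0.5 of that ceiling was reached in 38 animals, where differences may be compressed. All 9 seawater larvae of 3.5 h were among them. So were 3 of 9 larvae of that age with A. fragilissima and 7 of 9 with Mesophyllum sp. No larva of 10 h with either alga was, so the fall tested may be compressed too.

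Aqu2.1.41008_001 and Aqu2.1.41010_001 had the deepest falls among members found in all animals. Aqu2.1.41008_001 ran from 21.97 to 159 CPM (median 77.7) with A. fragilissima at 10 h and from 282 to 686 CPM (median 377) at 3.5 h. With Mesophyllum sp. it ran from 10.4 to 127 CPM (median 55.6) at 10 h and from 208 to 574 CPM (median 364) at 3.5 h. No larva of 10 h reached the lowest of 3.5 h, and the fold change was -2.74 ± 0.27 (edgeR adjusted p = 8.83e-16). Aqu2.1.41010_001 ran from 26.0 to 79.8 CPM (median 47.6) with A. fragilissima at 10 h and from 224 to 570 CPM (median 373) at 3.5 h. With Mesophyllum sp. its range was 28.6 to 132 CPM (median 60.1) at 10 h and 152 to 394 CPM (median 265) at 3.5 h. Again the ages did not overlap, and the fold change was -2.60 ± 0.24 (edgeR adjusted p = 1.79e-16). In larvae of 0.5 h the medians of these members had been 16.6 and 20.6 CPM, below their medians at 3.5 h with every cue. Larvae of 0.5 h and seawater larvae of 3.5 h helped to choose the set, so this is a description.

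Their courses between those ages differed in shape. Aqu2.1.41010_001 had medians of 183, 253, 77.9 and 61.2 CPM at 3.5, 5, 7 and 10 h in seawater, 373, 310, 69.1 and 47.6 CPM with A. fragilissima, and 265, 257, 75.6 and 60.1 CPM with Mesophyllum sp. Its main step thus lay between 5 and 7 h. In seawater larvae, which the rule did not use at these ages, it ran from 40.9 to 116 CPM at 7 h and from 123 to 332 CPM at 5 h without overlap, and the fold change was -1.67 ± 0.32 (edgeR adjusted p = 0.00114). It was the only member of 60 that edgeR called between these ages, with 11 lower at an unadjusted p below 0.05, none higher, and 0.227% of all features called in either direction. DESeq2 called 4 members, and edgeR 2 when only the compared groups were fitted. The value was -1.70 ± 0.47 within batch T (adjusted p = 0.651, edgeR) and -1.47 ± 0.33 within batch K (adjusted p = 0.0269, edgeR). Aqu2.1.41008_001 declined more evenly, with medians of 388, 359, 219 and 87.0 CPM in seawater at 3.5, 5, 7 and 10 h.

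**Figure D2:**
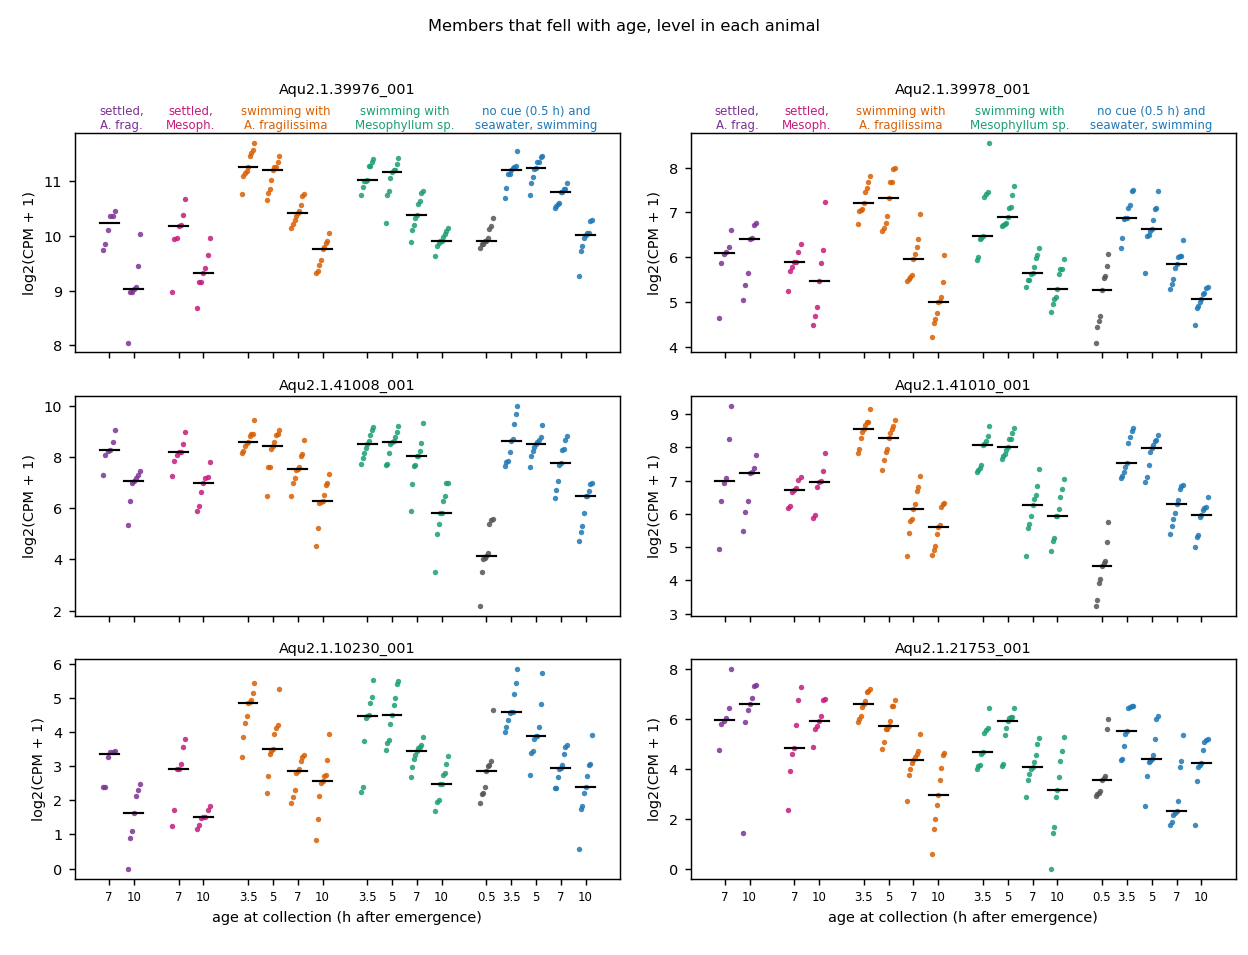
Level of 6 members that fell with age, as log2(CPM + 1) in each animal (points) with the group median (bars), by cue, stage and age in h after emergence. Points at 3.5 and 5 h form the upper bands with all 3 cues, and those at 10 h lie lower; in the panel for Aqu2.1.21753_001 settled animals lie mostly above swimming larvae of the same age.

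Aqu2.1.39978_001, whose identifier number is close to that of the most abundant member, fell by 1.98 ± 0.20 on the log2 scale (edgeR adjusted p = 1.05e-14). It ran from 17.5 to 64.8 CPM with A. fragilissima at 10 h and from 106 to 225 CPM at 3.5 h, without overlap. With Mesophyllum sp. it ran from 26.5 to 61.2 CPM at 10 h and from 60.3 to 372 CPM at 3.5 h, where the ranges met. Aqu2.1.10230_001 was scarcer, with medians of 4.92 CPM at 10 h and 28.2 CPM at 3.5 h with A. fragilissima, and 4.59 and 21.2 CPM at those ages with Mesophyllum sp. Its ranges overlapped with both algae, and its fold change was -2.33 ± 0.30 (edgeR adjusted p = 1.58e-10).

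The other 10 members that fell had fold changes from -2.56 ± 0.40 (Aqu2.1.21753_001, edgeR adjusted p = 1.84e-07) to -0.93 ± 0.34 (Aqu2.1.28088_001, adjusted p = 0.0394, edgeR). Besides these, they were Aqu2.1.34858_001, Aqu2.1.38449_001, Aqu2.1.16735_001, Aqu2.1.38433_001, Aqu2.1.16730_001, Aqu2.1.28760_001, Aqu2.1.38553_001 and Aqu2.1.05491_001. Aqu2.1.21753_001 ran from 0.492 to 23.5 CPM with A. fragilissima at 10 h and from 58.3 to 144 CPM at 3.5 h, without overlap. With Mesophyllum sp. its medians were 7.86 CPM at 10 h and 24.7 CPM at 3.5 h with ranges that overlapped, and it did not pass there alone (-1.66 ± 0.56, edgeR adjusted p = 0.0571). Counting single algae, all larvae of 10 h lay below all of 3.5 h for 6 members with A. fragilissima, compared with 1.55% of the abundant features, and for 3 members with Mesophyllum sp., compared with 0.56%. The 3 were Aqu2.1.39976_001, Aqu2.1.41008_001 and Aqu2.1.41010_001, and with A. fragilissima Aqu2.1.39978_001, Aqu2.1.21753_001 and Aqu2.1.38449_001 joined them. All of these are among the 15.

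Tested for each alga alone, 14 members were lower at 10 h than at 3.5 h with A. fragilissima (6.98% of all features were lower) and 9 with Mesophyllum sp. (3.28% of all features). DESeq2 called 15 and 10. No member's age change differed between the algae by edgeR or DESeq2; 8 did at an unadjusted p below 0.05, and 0.0134% of all features were called. Aqu2.1.11228_001 passed with A. fragilissima alone (-2.30 ± 0.81, edgeR adjusted p = 0.0362). Aqu2.1.26418_001 passed with Mesophyllum sp. alone (edgeR adjusted p = 0.0331), where 1 of 9 larvae of 10 h held a single count and 3 of 9 larvae of 3.5 h were at 10 CPM or more, up to 61.4 CPM. Its fitted fold change of -7.53 ± 2.34 depends on the prior count and is no bound, and 6 of those 9 younger larvae had no count. With only the compared Mesophyllum sp. groups in the fit, Aqu2.1.26418_001 did not pass the low-count filter.

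Batches held fewer animals and fewer calls. Within T, 7 members were called over both algae, all of them among the 15, with 40 of 60 fold changes negative. Within T and within K, 4 and 8 members were called with A. fragilissima, and within T 4 were called with Mesophyllum sp.; K held no larva of 10 h with that alga. Aqu2.1.39976_001 fell within T by 1.71 ± 0.18 over both algae and Aqu2.1.41010_001 by 3.02 ± 0.35. No member was higher at 10 h in any of these fits.

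The age at which members stood highest varied with every cue. With A. fragilissima the youngest of the 4 ages held the highest median for 27 of the 60 members, the following ages for 15, 8 and 10. With Mesophyllum sp. the numbers were 19, 23, 8 and 10. In seawater they were 49, 7, 4 and 0, where the larvae of 3.5 and 10 h chose the set. Over the 7681 abundant features 19.2% and 20.2% had it at 3.5 h with these algae, and 24.9% in seawater. Of the 15 members that fell, 11 stood highest at 3.5 h and the other 4 at 5 h with A. fragilissima. With Mesophyllum sp. 5 did so at 3.5 h and 10 at 5 h, and in each of these 15 the median at 3.5 h lay above that of larvae of 0.5 h with both algae. In seawater 11 of the 15 stood highest at 3.5 h and 4 at 5 h. The 15 were called on larvae of 3.5 and 10 h with the algae and the larvae of 0.5 h helped to choose the set, so all these counts are a description.

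**Figure D3:**
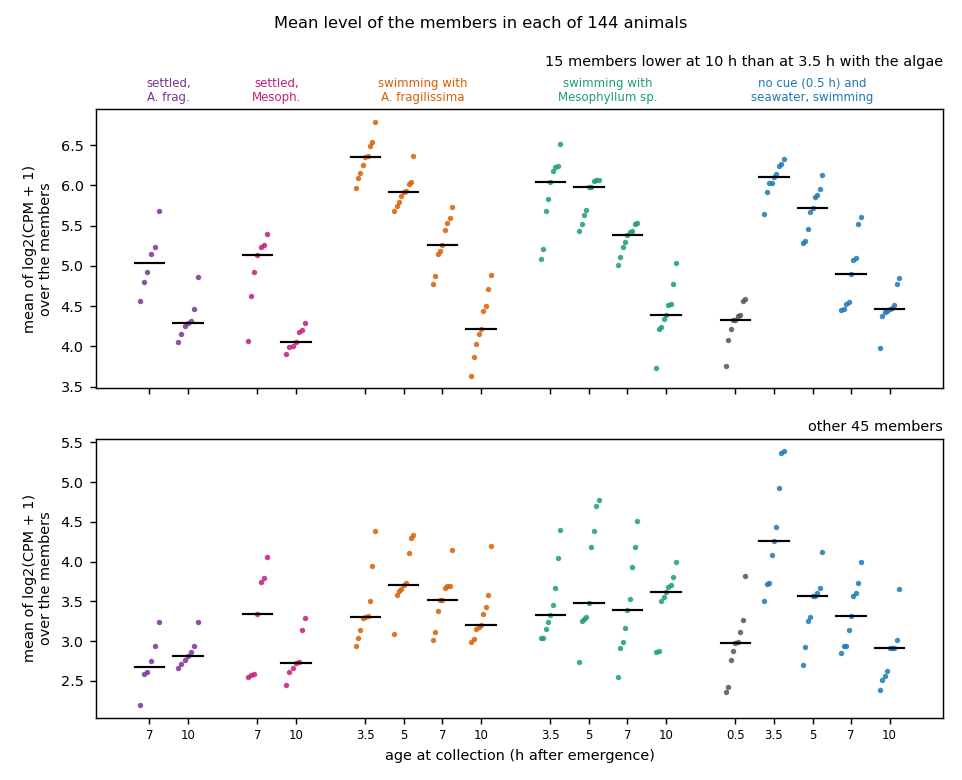
Mean of log2(CPM + 1) over the 15 members lower at 10 h than at 3.5 h with the algae (upper panel) and over the other 45 members (lower panel) in each of 144 animals (points), with group medians (bars), by cue, stage and age. The upper panel declines from 3.5 to 10 h under all 3 cues, which follows from how these 15 members were picked. In seawater at 3.5 h, a group that chose the members, the median in the lower panel was 4.26. It was at most 3.71 in any other group.

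Other members were near 0 in some animals and high in others. A member was counted here when at least 20 of the 117 animals the rule did not use lay below 2 CPM and at least 20 lay at 10 CPM or more. This held for 29 of the 60 members, compared with 2.28% of the 7681 abundant features (175 features). Of the 15 highest ranks 12 were of this kind, whereas 3 of the 15 members that fell with age were: Aqu2.1.05491_001, Aqu2.1.38553_001 and Aqu2.1.28760_001. They were at 10 CPM or more in 23 to 72 of the 117 animals.

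Aqu2.1.20954_001 had the highest rank. In seawater larvae of 3.5 h it ran from 1.10 to 341 CPM with a median of 250, and 8 of 9 were at 10 CPM or more. With A. fragilissima at that age 3 of 9 larvae were at 10 CPM or more, up to 399 CPM, around a median of 2.14 CPM. With Mesophyllum sp. 3 of 9 were, up to 268 CPM, around a median of 3.69 CPM. High and low animals thus stood side by side in the same group. At 10 h it was at 10 CPM or more in 4 of 9 larvae with A. fragilissima, 5 of 9 with Mesophyllum sp. and 2 of 9 in seawater, and in settled animals it was so in 2 or 3 of the 6 or 7 in each group. Its log2 level varied within groups by an SD of 3.65, the widest of the 7681 features.

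Members of the following ranks also varied widely between animals. Aqu2.1.26418_001, which was at 10 CPM or more in 17 of the 117 animals and so is not among the 29, had a median of 39.5 CPM in seawater larvae of 3.5 h and of 0 CPM in all 14 groups the rule did not use but 1, seawater at 7 h, where it was 0.457 CPM. Aqu2.1.29398_001 was at 10 CPM or more in 39 of the 117 animals and without a count in 37, and Aqu2.1.12881_001 in 61 and 41 of them. Aqu2.1.19435_001 was high in 51 animals and below 2 CPM in 55, Aqu2.1.06467_001 in 50 and 64, and Aqu2.1.27805_001 in 42 and 64. Aqu2.1.10347_001 (median 65.4 CPM in seawater at 3.5 h) was below 2 CPM in only 4 of the 117 and is not among the 29 either. It reached at least 96.8 CPM in the highest animal of each group at 3.5 and 10 h and of each settled group, with medians as low as 4.11 CPM.

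**Figure D4:**
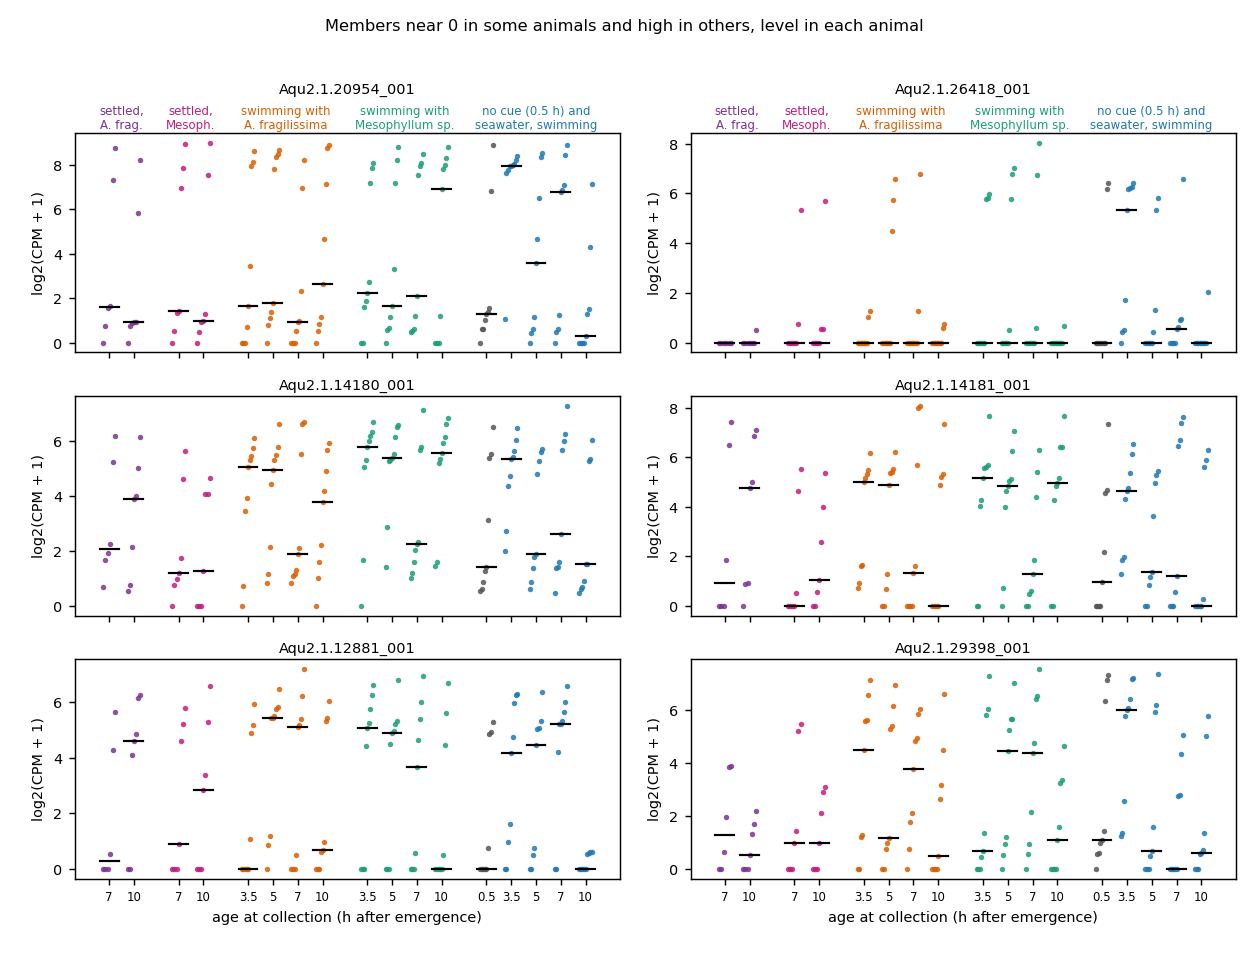
Level of 6 members that were near 0 in some animals and high in others, as log2(CPM + 1) in each animal (points) with the group median (bars), by cue, stage and age. High and low animals occur side by side in most groups of 5 of the members, while Aqu2.1.26418_001, at 10 CPM or more in 17 of 117 animals, has its median near 0 in every group but seawater at 3.5 h.

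Spread between animals of one group was wider in the members than in the abundant features at large, as a description. The rule ranked differences of medians between small groups, which can favour features that vary widely. How much of the contrast comes from the choice was not tested. In the 117 animals the SD of log2 levels within groups had a median of 1.57 over the 60 members and 0.53 over the 7681 features. It exceeded the 90th percentile of those features (1.10) in 45 members, that is in 4 of the 15 that fell with age and 41 of the other 45. The 15 highest ranks had a median SD of 2.21 and the 15 lowest ranks 1.04. Across the 60 members the rank score and this SD had a Spearman rho of 0.67, a description over members that share libraries.

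The 29 members were not all high in the same larvae. In seawater larvae of 3.5 h between 13 and 27 of the 29 (median 18) were at 10 CPM or more in an animal, and the 117 animals outside the rule had between 4 and 22 (median 13). Larvae of 0.5 h had 4 to 16 (median 9) and seawater larvae of 10 h 6 to 12 (median 9). These last 3 groups chose the members, and their contrast is given without a test. In seawater at 3.5 h, mean log2 levels were taken over the 45 members not called lower at 10 h over both algae. The highest were 5.39, 5.36 and 4.93, in 2 larvae of batch K and 1 of batch T. The other 6 larvae lay between 3.50 and 4.44. Leaving out single larvae of the 3 choosing groups kept 45 to 55 of the 60 members in the set.

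Few pairs of members varied closely together. After removal of group and batch means, the 1770 pairs had a median Pearson r of 0.02 over the 117 animals. Values ran from -0.38 to 0.92, and 3 pairs exceeded 0.5. All 3 had adjacent or nearly adjacent identifier numbers. Aqu2.1.14180_001 and Aqu2.1.14181_001 had r = 0.92, being both at 10 CPM or more in 59 animals, both below it in 54, and apart in 4, where only Aqu2.1.14180_001 was high. Aqu2.1.26411_001 and Aqu2.1.26418_001 had r = 0.85 and were both high in 9 animals, Aqu2.1.26418_001 alone in 8 and neither in 100. Aqu2.1.16730_001 and Aqu2.1.16735_001 also had r = 0.85, both being high in 89 animals, Aqu2.1.16735_001 alone in 22 and neither in 6. Closeness of identifiers was not enough for this: Aqu2.1.38433_001 and Aqu2.1.38449_001 had r = 0.42, Aqu2.1.41008_001 and Aqu2.1.41010_001 0.36, and Aqu2.1.39976_001 and Aqu2.1.39978_001 -0.33. Whether members of a pair are similar copies that share reads was not tested, so the levels of each within a pair are uncertain.

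**Figure D5:**
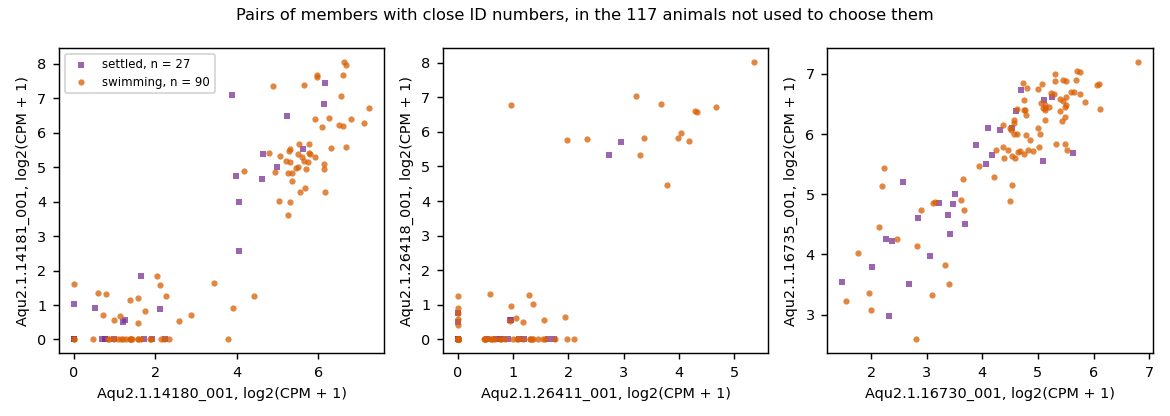
Levels, as log2(CPM + 1), of both members of 3 pairs with close identifier numbers in the 117 animals not used to choose the set, of which 27 were settled (squares) and 90 swimming (circles). In the left panel animals form a low and a high cloud, in the middle panel most lie near 0 on both axes, and in the right panel they form a continuous band.

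Aqu2.1.14180_001 and Aqu2.1.14181_001 illustrate how such a pair behaved across groups. Larvae with Mesophyllum sp. had 7 of 9 at 10 CPM or more at 3.5, 5 and 10 h for both, and 3 of 9 at 7 h. Seawater larvae had 7, 4, 4 and 3 of 9 for Aqu2.1.14180_001 and 6, 4, 4 and 3 of 9 for Aqu2.1.14181_001 at 3.5, 5, 7 and 10 h. Neither was called in any tested comparison.

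Between settled and swimming animals, members were called in both directions. Settled post-larvae were compared with larvae still swimming beside the same alga at the same age, as the mean of 4 such comparisons at 7 and 10 h, none of whose animals chose the members. On A. fragilissima at 7 h all 6 settled animals were of batch C and the 9 swimming larvae of batches T (4) and K (5), so that batch and settlement cannot be told apart there, and values within C rest on the other 3 comparisons. Of the 60 members 6 were higher and 7 lower in settled animals, compared with 16.9% and 17.1% of all features, so the share of members called was not above that of features at large. Fold changes were negative for 45 members with a median of -0.41, and the median over all features was -0.10. The libraries of settled animals had mean scaling factors of 0.78 to 0.96 and those of swimming larvae of the same ages 1.07 to 1.12, so a fold change lies above that of plain CPM.

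Of the members that fell with age, 4 were higher in settled animals. Aqu2.1.21753_001 ran from 25.8 to 252 CPM (median 61.7) in animals settled on A. fragilissima at 7 h and from 5.57 to 40.6 CPM (median 19.3) in swimming larvae. At 10 h it ran from 1.67 to 164 CPM (median 95.2) in settled animals and from 0.492 to 23.5 CPM (median 6.75) in swimming larvae with that alga. On Mesophyllum sp. at 10 h it ran from 28.6 to 110 CPM (median 59.8) in settled animals and from 0 to 37.3 CPM (median 7.86) in swimming larvae. In these groups settled animals were mostly higher with some overlap. Animals settled on Mesophyllum sp. at 7 h ran from 4.12 to 153 CPM, with the lowest median of the 4 settled groups (27.3 CPM). Over all 4 comparisons the fold change was 2.77 ± 0.34 (edgeR adjusted p = 9.21e-12), with 3.04 ± 0.54 within batch C. The median of 95.2 CPM in animals settled on A. fragilissima at 10 h was close to that of 95.6 CPM in swimming larvae of 3.5 h with that alga.

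Aqu2.1.41010_001 (1.26 ± 0.20, edgeR adjusted p = 3.45e-08), Aqu2.1.39978_001 (1.00 ± 0.17, edgeR adjusted p = 2.32e-07) and Aqu2.1.41008_001 (0.67 ± 0.21, edgeR adjusted p = 0.00748) were the other 3. At 10 h on A. fragilissima Aqu2.1.41010_001 had 43.4 to 215 CPM (median 150) in settled animals and 26.0 to 79.8 CPM (median 47.6) in swimming larvae, with overlap. Aqu2.1.39978_001 had 32.03 to 108 CPM (median 83.1) in settled animals and 17.5 to 64.8 CPM (median 30.9) in swimming larvae there. In batch C alone the fold changes were 1.09 ± 0.31 and 1.13 ± 0.25, and that of Aqu2.1.41008_001 was 0.64 ± 0.24 (edgeR adjusted p = 0.0673). Aqu2.1.39976_001 did not pass (-0.16 ± 0.09, edgeR adjusted p = 0.192). The swimming larvae of 10 h enter both the age and the settlement comparison, so that the values of these members are linked.

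Aqu2.1.23893_001 was higher in settled animals and was not called lower at 10 h than at 3.5 h over both algae. It ran from 79.1 to 1636 CPM (median 352) in animals settled on Mesophyllum sp. at 10 h and from 23.1 to 274 CPM (median 74.1) in swimming larvae. On A. fragilissima at 7 h the medians were 310 CPM in settled animals and 119 CPM in swimming larvae. Ranges were wide and overlapped, and the fold change was 2.31 ± 0.37 (edgeR adjusted p = 7.46e-08), with 2.34 ± 0.53 within batch C. Aqu2.1.23839_001 passed narrowly (0.86 ± 0.35, edgeR adjusted p = 0.0426) and was not called within batch C.

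Lower in settled animals were Aqu2.1.34858_001, Aqu2.1.24880_001, Aqu2.1.40890_001, Aqu2.1.05491_001, Aqu2.1.38433_001, Aqu2.1.11871_001 and Aqu2.1.29398_001. Aqu2.1.34858_001 ran from 2.91 to 6.14 CPM (median 4.43) in animals settled on A. fragilissima at 7 h and from 15.7 to 79.8 CPM (median 40.9) in swimming larvae, without overlap, though these groups share no batch. On Mesophyllum sp. at 7 h it ran from 1.71 to 12.2 CPM (median 3.03) in settled animals and from 6.05 to 24.8 CPM (median 19.1) in swimming larvae. Its fold change was -1.64 ± 0.36 (edgeR adjusted p = 9e-05), with -1.42 ± 0.37 within batch C. This member was thus lower at 10 h than at 3.5 h and lower again in settled animals.

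None of the other 6 lower members passed within batch C. Aqu2.1.24880_001 had -1.30 ± 0.33 over all batches (edgeR adjusted p = 0.000615) and -0.98 ± 0.44 within C (edgeR adjusted p = 0.134). Aqu2.1.40890_001 had -1.18 ± 0.37 and -0.93 ± 0.41, and Aqu2.1.29398_001 -2.32 ± 0.87 and -1.94 ± 0.82. For Aqu2.1.05491_001 the values lay further apart, at -1.76 ± 0.63 over all batches and -0.39 ± 0.71 within C. Aqu2.1.11871_001 reached at most 6.46 CPM on A. fragilissima at 7 h and 7.00 CPM at 10 h in settled animals, while 7 of 9 larvae swimming there at 10 h were at 10 CPM or more, up to 267 CPM. On Mesophyllum sp. 4 of 7 settled animals at 7 h and 1 of 7 at 10 h were at 10 CPM or more, up to 200 CPM.

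With the comparison kept to 7 h, an alternative chosen after the data were seen, 3 members were higher (Aqu2.1.21753_001, Aqu2.1.23893_001 and Aqu2.1.41010_001; 10.9% of all features) and 2 lower (Aqu2.1.34858_001 and Aqu2.1.26418_001; 6.31% of all features). No member's settlement change differed between the algae by edgeR, where 2 did at an unadjusted p below 0.05 and DESeq2 called 1; 0.0201% of all features were called. None differed between animals settled on A. fragilissima and on Mesophyllum sp. by edgeR, with 3 at an unadjusted p below 0.05 and 2 by DESeq2, and 0.428% of all features called. Aqu2.1.11871_001 came nearest there (-3.81 ± 1.09, edgeR adjusted p = 0.0698).

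Settled animals were also compared by age. Of the 60, 10 were lower in animals settled and collected at 10 h than in those at 7 h, and 3.53% of all features were. None was higher by edgeR or at an unadjusted p below 0.05, where DESeq2 called 1, and 3.82% of all features were higher. Fold changes were negative for 33 members and positive for 27, with a median of -0.21 against -0.02 over all features. Aqu2.1.39976_001 ran from 265 to 1052 CPM (median 524) at 10 h and from 850 to 1398 CPM (median 1207) at 7 h on A. fragilissima. On Mesophyllum sp. it ran from 413 to 989 CPM (median 639) at 10 h and from 505 to 1632 CPM (median 1159) at 7 h. Most older animals lay below the younger ones, and its fold change was -0.78 ± 0.12 (edgeR adjusted p = 2.44e-06).

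Aqu2.1.10230_001 had medians of 2.096 CPM at 10 h and 9.20 CPM at 7 h on A. fragilissima, and 1.86 and 6.56 CPM at those ages on Mesophyllum sp. (-1.69 ± 0.34, edgeR adjusted p = 0.00034). Aqu2.1.24880_001 had 21.8 CPM at 10 h and 60.2 CPM at 7 h on A. fragilissima, and 11.7 and 112 CPM on Mesophyllum sp. (-1.87 ± 0.42, edgeR adjusted p = 0.00159). Aqu2.1.41008_001 also fell (-1.22 ± 0.28, edgeR adjusted p = 0.00173). The others were Aqu2.1.16730_001, Aqu2.1.16735_001, Aqu2.1.18116_001, Aqu2.1.30543_001, Aqu2.1.38433_001 and Aqu2.1.05491_001. Aqu2.1.41010_001, Aqu2.1.39978_001 and Aqu2.1.21753_001, higher in settled animals, were not among them. Within batch C 8 members were called, all lower, and the fold change of Aqu2.1.39976_001 was -0.76 ± 0.12.

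Few members were called between cues, and the share of all features called was small as well. Seawater larvae of 3.5 and 10 h chose the set, so algae were set against seawater at 5 and 7 h. With A. fragilissima 1 member was higher, Aqu2.1.18551_001 (0.97 ± 0.29, edgeR adjusted p = 0.0352), and 3.16% of all features were called in either direction. It ran from 8.57 to 39.5 CPM (median 13.6) with A. fragilissima and from 2.42 to 8.71 CPM (median 6.68) in seawater at 5 h. At 7 h it ran from 2.66 to 36.4 CPM (median 8.62) with the alga and from 3.46 to 14.2 CPM (median 6.49) in seawater. The groups overlapped barely at 5 h and widely at 7 h. Within batch T the value was 1.47 ± 0.50 (edgeR adjusted p = 0.323), within K it was 0.55 ± 0.37 (edgeR adjusted p = 0.536), and the call was also lost with total counts as a covariate and without the low-count filter.

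With Mesophyllum sp. no member differed from seawater at 5 and 7 h by edgeR or DESeq2, with 4 at an unadjusted p below 0.05 and 0.0268% of all features called. Between the algae over all 4 ages none differed by edgeR or DESeq2, with 4 at an unadjusted p below 0.05 and 0.816% of features called. At 3.5 h alone none differed by edgeR, with 7 at an unadjusted p below 0.05, 1 by DESeq2 and 0.408% of features called. Aqu2.1.38449_001 came nearest, with 84.0 to 532 CPM (median 123) with A. fragilissima and 22.2 to 204 CPM (median 71.0) with Mesophyllum sp. (1.03 ± 0.30, edgeR adjusted p = 0.088). Both comparisons with seawater share the seawater larvae. A p that misses the threshold does not show equal levels.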

How the data were processed

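Per the labels, RNA of single larvae and post-larvae was made into CEL-Seq2 libraries, sequenced over 2 lanes, and demultiplexed, mapped and counted on the Aqu2.1 gene models with a public CEL-Seq pipeline. The authors deposited whole-number counts per feature and animal, unnormalized, both lanes summed, and spike-in and bacterial rows removed, as the table's name has it. The aligner is not given in the sources used here. No columns were identical.

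Counts were tested with edgeR 4.0.16 in R 4.3.3 (filter on low counts by group, TMM scaling, 17 group means plus batch, robust quasi-likelihood F test, 2-sided, Benjamini-Hochberg adjustment over 14950 features), after the script had been tested on simulated data. DESeq2 1.42.0 was an alternative. Standard errors were taken as the absolute log2 fold change over the root of F. CPM used column totals, with a pseudocount of 1 on the log2 scale. Python 3.11.15 with pandas 2.3.3 was used for levels.

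The members and the comparisons were chosen with earlier results of these data known. Named members were the 10 of highest rank, the 5 most abundant at 3.5 h in seawater, up to 5 per direction with the smallest p in each comparison, and those at the limit of the set; other members named were chosen after their values were seen. No gene lists, names or sequences were available for these identifiers, so none is reported.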

Additional observations from a re-analysis of the deposited data

How the results depend on the processing

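No result reversed its direction. Scaling by DESeq2's size factors (RLE) in edgeR changed no count of members called. The 34 changes of single members under the naming rule had 278 alternative values, of which 251 stayed on their side of the threshold and 27 lost the call in the same direction. Counts of members called moved by more than 1.5 times as follows. Over both algae 15 were lower at 10 h, and 7 within batch T. With A. fragilissima 14 were lower, with 4 within T and 8 within K, and with Mesophyllum sp. 9, with 4 within T. Between settled and swimming animals 13 were called, and 7 in batch C alone over 3 comparisons and 5 at 7 h only, both chosen after the data were seen; 5 of those 7 were among the 13. Between settled animals of 10 and 7 h 10 were called, 6 with only the compared groups in the fit and 6 without a low-count filter. DESeq2 called 1 settlement change that differed between the algae, 2 members between animals settled on A. fragilissima and on Mesophyllum sp., 1 between the algae at 3.5 h and 4 between 7 and 5 h in seawater, where edgeR called 0, 0, 0 and 1. For A. fragilissima against seawater the 1 call became 0 with depth as a covariate, within T, within K and without the filter. Between the algae 1 member was called within T over all ages, and 1 at 3.5 h with only the compared groups. Between 7 and 5 h in seawater 2 were called with only the compared groups and 0 within T.

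With the replicate block, 6 members were called between settled and swimming animals and 6 between settled animals of 10 and 7 h. Between A. fragilissima and seawater Aqu2.1.18551_001 was no longer called (0.95, edgeR adjusted p = 0.0549) and 1 other member was. Over 12 same-numbered pairs of larvae swimming with the algae, the correlations ran from -0.10 to 0.23 and 3 were above 0.1. Those 3 were with Mesophyllum sp. (0.17, 0.22 and 0.23). Of the 12 larvae of 10 h, 3 correlated best with their own number. Whether the numbers pair the animals cannot be decided from so few pairs. Settled animals were not among these pairs, so pairing was not tested for them.

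Choosing the set again kept 34 of 60 members with group means in place of medians, 18 within T and 27 within K, and 45 to 55 with 1 animal left out. The cause of these moves was not tested. Sets and fits within a batch also held fewer animals, and the part this plays was not tested either. Fits within K over both algae and within C for the age comparisons could not be had, for want of animals. Whether depth limited the calls was not tested.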
